A study of Mus musculus with 52 samples.

Results

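The genes described here are 8 genes of the mouse X chromosome known to escape X inactivation: Kdm6a, Kdm5c, Eif2s3x, Ddx3x, 5530601H04Rik, Pbdc1, Mid1 and Car5b. They were taken from a list of names, out of 2614 annotated genes on X, and 7 of them are among the 948 protein-coding genes of that chromosome. For each gene, ChIP-seq peaks were collected over the gene and 50 kb on both sides. A peak counted as a promoter peak if it reached within 1 kb of the annotated gene start, as a body peak if it otherwise touched the gene, and as a flank peak if it lay outside. Pbdc1 and 5530601H04Rik start 0.147 kb apart on opposite strands, so that the 8 windows merge into 7 regions, which cover 1.35 Mb or 0.788% of X.

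The cells were clonal female mouse embryonic fibroblasts from an interspecific cross between FVB and M.m. Castaneus. Wild-type (wt) cells were the clone Wt2A1, and germline SmcHD1 null (mut) cells, with the MommeD1 mutation, were the clone Mut5A6. Somatic knockout (somKO) cells were 2 clones, A3-3 and D4, in which SmcHD1 was disrupted with CRISPR. According to the study's methods they came from another wt clone, which is triploid, so that somKO and wt differ in parent clone as well as in SmcHD1. The lists analysed cover 24 of 52 libraries and give 1 list of peaks per antibody and genotype, from merged reads: SmcHD1 in wt and mut (3 libraries each), CTCF in wt (3), mut (3) and somKO (4), and Rad21 in wt (2), mut (2) and somKO (4). They hold between 244 and 89974 peaks, and between 1 and 2654 on X. Each list pools both alleles, so that binding on the active and the inactive X cannot be told apart, and no value below has a replicate error. No list measures transcription, so that escape itself was not tested.

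In female mammals, 1 X chromosome of each cell is silenced. Most genes on it are shut off, and a few, the escape genes, stay transcribed. SmcHD1 is a chromosomal protein of the SMC family that is enriched on the inactive X and needed to keep many of its genes silent. CTCF is a zinc finger protein that binds a directional DNA motif, and cohesin, of which Rad21 is a subunit, is halted at CTCF sites. A pair of CTCF sites whose motifs point toward each other commonly marks the ends of a chromatin loop. On the inactive X, CTCF and cohesin are known to bind near escape genes.

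The CTCF sites that carry the results below are shown in 2 sets. The sequences are from the reference genome (GRCm38, the build called mm10), 5′ to 3′ on the motif strand, with the match to the CTCF motif in capitals. The motif was learned from CTCF wt peaks on chromosome 1, spans 20 bases and is met by 48.8% of all CTCF wt peaks on X within 200 bases at their centre, against 5.02% of positions 3 kb from CTCF wt peaks of chromosome 1. The matches shown are the best of each whole peak, which is a wider search than these 200 bases. The first set is shown because its members resemble each other within the motif and on both sides of it.
Eif2s3x promoter (chrX:94213733-94213792, minus strand): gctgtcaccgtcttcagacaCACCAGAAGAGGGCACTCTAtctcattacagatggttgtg
Eif2s3x upstream (chrX:94246472-94246531, minus strand): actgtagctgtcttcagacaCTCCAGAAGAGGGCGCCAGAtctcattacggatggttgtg
Kdm5c intron (chrX:152243288-152243347, plus strand): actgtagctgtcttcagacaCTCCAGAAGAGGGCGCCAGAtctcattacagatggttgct
Car5b upstream (chrX:164065259-164065318, minus strand): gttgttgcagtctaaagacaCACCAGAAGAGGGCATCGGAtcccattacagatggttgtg
Mid1 intron (chrX:169888709-169888768, plus strand): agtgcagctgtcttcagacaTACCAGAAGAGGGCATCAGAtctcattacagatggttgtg
The other 4 stretches were between 81.7% and 83.3% identical to the Eif2s3x promoter stretch, and each of the 5 lay in sequence that the reference genome marks as repeated.

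The second set is shown because these sites flank, or lie in, an escape gene, except the last, which belongs to the strongest CTCF peak of any window.
Ddx3x upstream (chrX:13229971-13230030, plus strand): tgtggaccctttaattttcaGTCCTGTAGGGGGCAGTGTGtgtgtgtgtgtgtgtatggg
Ddx3x downstream (chrX:13461691-13461750, minus strand): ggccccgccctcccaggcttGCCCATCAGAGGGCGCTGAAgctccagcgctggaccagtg
Kdm6a intron (chrX:18254939-18254998, minus strand): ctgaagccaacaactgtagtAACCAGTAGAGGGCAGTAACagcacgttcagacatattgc
Kdm5c downstream (chrX:152308136-152308195, minus strand): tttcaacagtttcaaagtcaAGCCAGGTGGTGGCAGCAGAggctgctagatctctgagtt
5530601H04Rik intron (chrX:105070359-105070418, plus strand): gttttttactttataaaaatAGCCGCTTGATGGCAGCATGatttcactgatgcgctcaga
Pbdc1 intron (chrX:105104370-105104429, minus strand): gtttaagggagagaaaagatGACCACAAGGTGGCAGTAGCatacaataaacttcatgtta
Beyond Mid1 and Gm21887 (chrX:170022261-170022320, minus strand): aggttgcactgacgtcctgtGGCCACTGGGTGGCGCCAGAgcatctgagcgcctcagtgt

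Peaks were compared by their score percentile. The deposited score ranks the peaks of 1 list, and the percentile is the share of that list with a lower score, ties counted by their mid-rank. It says how strong a peak was for its own list, and not how much protein was bound. A longer list pushes the percentile of a given peak up. Intervals are at 95% and cover counting error only.

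The question of where SmcHD1 lies at escape genes had different answers for the 8 genes. SmcHD1 wt peaks lay at the promoters of 4 genes, at the far end of Mid1, and in none of the windows of 5530601H04Rik, Pbdc1 and Car5b. The promoter peaks were at Kdm6a, Kdm5c, Eif2s3x and Ddx3x, which is 4 of 8 genes, whereas 17.5% of the X protein-coding genes had such a peak. In the mut list, the background of the antibody, 0% of the X protein-coding genes and 0 of the 8 genes had one.

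The strongest of the 4 was at Eif2s3x (ENSMUSG00000035150.15), which encodes the gamma subunit of the translation initiation factor eIF2. The peak at chrX:94212888-94213251 was 364 bp wide, stood at percentile 74.5 of the SmcHD1 wt list and had its midpoint at -0.207 kb from the gene start. At Ddx3x (ENSMUSG00000000787.12), a DEAD-box RNA helicase, the peak at chrX:13280838-13281581 covered the start, over the 5′ UTR, at percentile 70.6. At Kdm6a (ENSMUSG00000037369.17), a demethylase of H3K27me3, the peak at chrX:18163123-18163598 lay 0.785 kb inside the gene at percentile 61.5. At Kdm5c (ENSMUSG00000025332.14), a demethylase of H3K4 methylation, the peak at chrX:152233167-152233459 was the weakest of the 4, at percentile 44. These levels were ordinary for promoters with the protein. The 166 X protein-coding promoters with a SmcHD1 wt peak had a median percentile of 51.1, with a middle range of 30.3 to 72.7.

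Outside Mid1, the windows held 5 SmcHD1 wt peaks, and 4 of these were the promoter peaks. The fifth lay 24.6 kb beyond the end of Ddx3x at percentile 10.4. Of the X peaks within 50 kb of a protein-coding gene, 15.0% lay at a protein-coding promoter, and of all X peaks 9.60% did. The density was 12.6 peaks per Mb over all windows (interval 7.35 to 20.2) and 5.39 without Mid1 (interval 1.75 to 12.6), and both intervals hold the 10.5 per Mb of X. For Car5b, a mitochondrial carbonic anhydrase, the nearest SmcHD1 wt peak was 67.3 kb away, at Ap1s2. For Pbdc1 and 5530601H04Rik it was 570.8 kb and 608.3 kb away.

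The 4 promoters with SmcHD1 were richer in CpG than the median X promoter, and so were promoters without it. Their observed over expected CpG ratio, in the promoter windows of RefSeq, was 0.932 at Ddx3x, 0.863 at Eif2s3x, 0.796 at Kdm5c and 0.708 at Kdm6a, where the median of 1223 X promoters was 0.363. Pbdc1, which had no SmcHD1 peak, had a ratio of 1.1, above 98.7% of X promoters, and the RefSeq start of 5530601H04Rik had 0.694, nearly that of Kdm6a. Car5b had 0.438, and the 3 starts of Mid1 had 0.14, 0.281 and 0.579.

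Mid1 (ENSMUSG00000035299.16), an E3 ubiquitin ligase of microtubules, differed from the other 7. In standard mouse strains the gene runs across the boundary of the pseudoautosomal region, the short stretch that pairs with Y, and 7.87% of its window is unread sequence. The window held 12 SmcHD1 wt peaks, more than 96.5% of X protein-coding genes have in theirs, by a count not scaled to window length. Mid1 is 320.5 kb long, and the longest of the other 7, Kdm6a, is 117.4 kb. The 12 peaks ran from 301.1 to 334.4 kb after the start, over the last part of the gene, its 3′ end and the neighbouring gene Gm21887. Their percentiles were between 53.7 and 99.7 with a median of 94.7, and 8 of the 12 were at or above percentile 90. The highest, at chrX:170004485-170006120, was 1636 bp wide and covered the 3′ UTR. The peak at chrX:170018539-170019200 overlapped the single X peak of the SmcHD1 mut list, which stood at percentile 47.5 of that list, so that the antibody gave a peak there in mut as well. Reads from repeated copies in this region could not be examined.

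**Figure D1:**
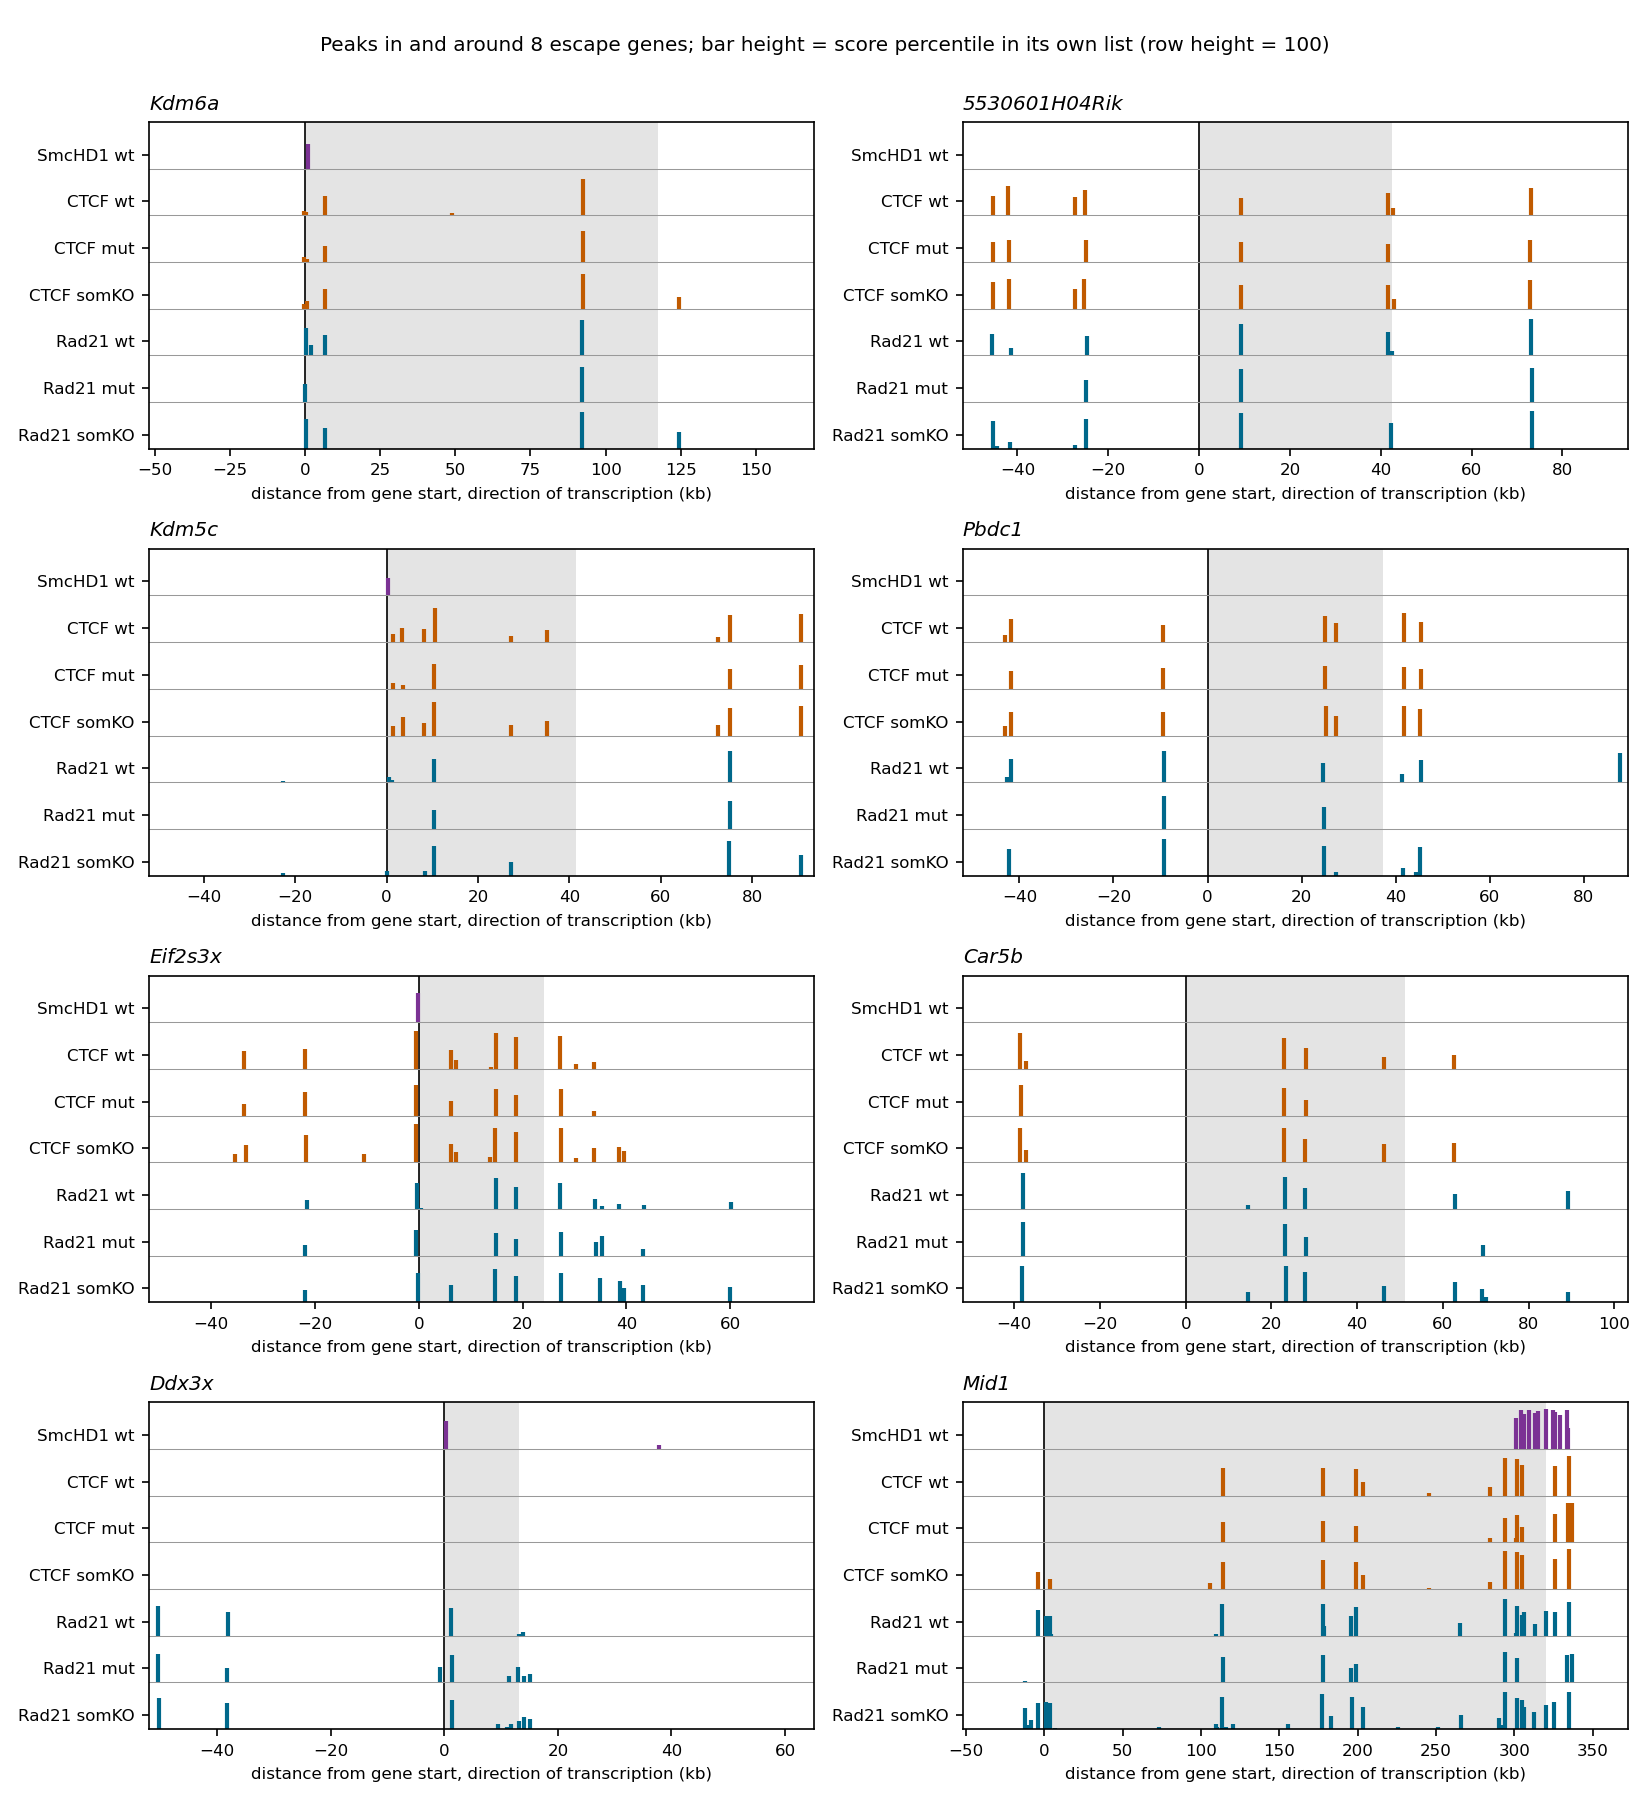
Peaks in the windows of the 8 escape genes in 7 lists. The horizontal axis is the distance of the peak midpoint from the gene start in kb in the direction of transcription, the grey area is the gene, and the height of each bar is the score percentile in its own list. SmcHD1 wt peaks sit at the start of 4 genes and between 301.1 and 334.4 kb in Mid1, and the Ddx3x panel has no CTCF peak.

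Promoters also differed in CTCF and Rad21. CTCF lay at 2 of 8 promoters in each genotype, those of Eif2s3x and Kdm6a, against 14.7% (wt), 15.8% (mut) and 18.0% (somKO) of X protein-coding genes. Rad21 lay at 5 promoters in wt and in somKO and at 3 in mut, against 28.2%, 35.2% and 25.9% of X protein-coding genes. The 5 were Kdm6a, Kdm5c, Eif2s3x, Ddx3x and Mid1, and the 2 without a Rad21 promoter peak in mut were Kdm5c and Mid1. Of the 5 with Rad21 in wt, 4 had SmcHD1, where 35.6% of the X protein-coding genes with Rad21 at the promoter in wt did.

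Eif2s3x had the strongest CTCF promoter site. It stood at percentile 96.4 in wt, at 78.1 in mut cells and at 97.4 in the somKO list. Its Rad21 peak ranked at 66.2 (wt), 65.5 (mut) and 74.3 (somKO), so that CTCF was lower in mut while Rad21 was nearly at its wt level. A second, weak Rad21 peak in wt stood at 2.34. The best motif match of the CTCF wt peak lay 0.9 kb upstream of the gene start, and its sequence is the first one shown above. It lay within the CTCF peaks of all 3 genotypes, but away from the centre of the wt peak. It was outside the SmcHD1 peak and the Rad21 peaks of wt and mut, and inside the Rad21 peak of somKO. Whether CTCF is bound at this match was not tested.

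Kdm6a had 2 weak CTCF promoter sites. The stronger in wt stood at 10.2 (wt), 11.6 (mut) and 13.2 (somKO), the other at 8.37 (wt), 8.36 (mut) and 18.6 (somKO), and neither wt peak held a motif match. Rad21 was stronger, at 69.3 (wt), 45.6 (mut) and 76 (somKO). Ddx3x had a broad Rad21 promoter peak at 69.9 (wt), 69.1 (mut) and 73 (somKO), with a separate second peak in mut at 37.7, and no CTCF peak in its window in any genotype. Of the X protein-coding genes, 17.5% had a window without a CTCF peak in all 3 lists. Kdm5c had a weak Rad21 promoter peak, at 12.4 in wt and 12.3 in somKO, and a second one in wt at 5.25, and none was listed in mut. The Mid1 promoter had Rad21 at 48.5 in wt and 68.9 in somKO, and none was listed in mut.

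No list had a peak within 1 kb of the starts of 5530601H04Rik, Pbdc1 and Car5b. For comparison, 54.6% of X protein-coding genes had no peak there in the SmcHD1 wt, CTCF and Rad21 lists. For 5530601H04Rik (ENSMUSG00000087174.7), a non-coding RNA, the result depends on which start is used. Most of its 16 annotated transcripts start about 9.5 kb inside the gene, at the start given by RefSeq, and there CTCF stood at 44.3 (wt), 51.8 (mut) and 60.1 (somKO). Rad21 at that start was among the strongest of the window, at 78.7 (wt), 82.4 (mut) and 91 (somKO). Both proteins ranked higher in mut than in wt at this start.

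**Figure D2:**
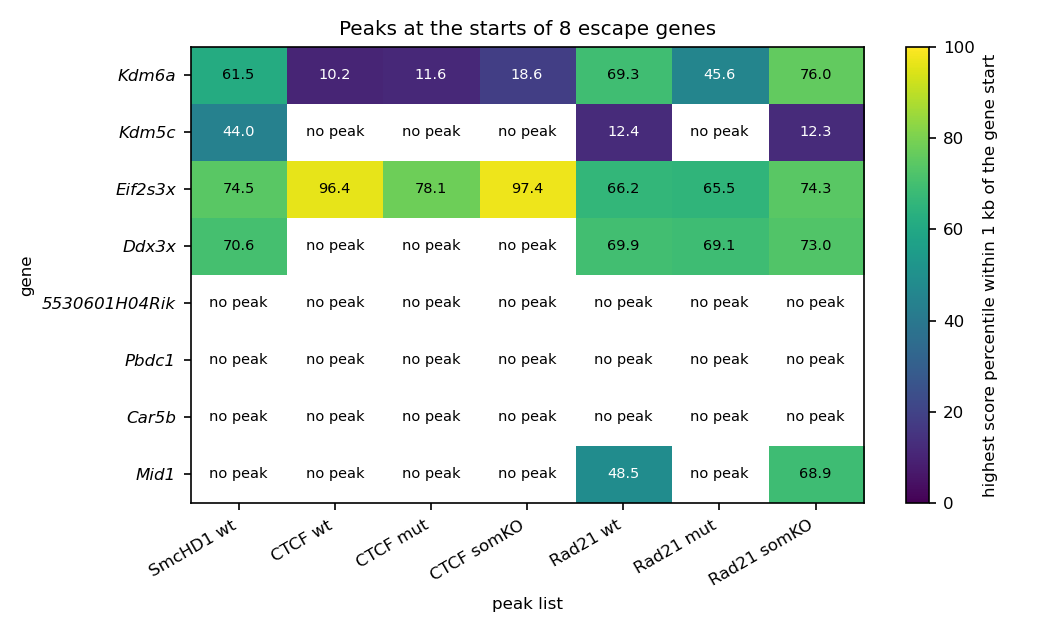
Highest score percentile within 1 kb of the gene start, for the 8 genes (rows) in 7 lists (columns), with white cells where no peak is listed. Eif2s3x has CTCF at 96.4, 78.1 and 97.4, and 5530601H04Rik, Pbdc1 and Car5b have no peak in any of the lists.

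Promoters of 2 other lists of X genes were counted for comparison. Of 8 other genes reported to escape (Xist, Jpx, Ftx, Firre, Shroom4, Syap1, Utp14a and 1810030O07Rik), 1 had a SmcHD1 wt promoter peak, Shroom4, whereas 8 had Rad21 and 3 had CTCF in wt. Of 12 genes known as silenced on the inactive X, 4 had SmcHD1 (G6pdx, Iqsec2, Usp9x and Zfx), 8 had Rad21 and 4 had CTCF in wt. Among the X protein-coding genes outside the list, the promoter closest to that of Eif2s3x over the 6 CTCF and Rad21 lists was Akap17b, at a Euclidean distance of 16.3 percentile points. For Kdm6a it was Ammecr1, at 25.3, which had Rad21 alone. The other 6 genes had a promoter peak in fewer than 4 of the 6 lists and were not compared.

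The sites that flank each gene were defined as the nearest CTCF wt peak on either side of the gene that overlapped a Rad21 wt peak. Of these 16 flanking sites, 11 lay within 50 kb of the gene. For 13 of the 16, no start of another protein-coding gene lay between the escape gene and the site. These counts were not made for other X protein-coding genes, so that they describe the sites and do not set the escape genes apart.

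At Eif2s3x the flanking sites enclosed the gene most closely. The upstream site is the promoter site, 0.062 kb from the gene, and the downstream site lay 2.49 kb away at CTCF percentile 83 (wt), 67.8 (mut) and 86.3 (somKO). The next protein-coding genes, Klhl15 and Zfx, lay outside them at 21.7 kb and 65 kb. Ddx3x was the opposite case. Its flanking sites lay 50.8 kb upstream, just past the window, at 60.7 (wt), 57.3 (mut) and 63 (somKO), and 167.5 kb downstream, at 72.1 (wt), 86.4 (mut) and 77.1 (somKO). The genes on both sides, Usp9x and Nyx, lay still further away, at 107.6 kb and 172.1 kb.

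Kdm6a had its upstream flanking site at the promoter, 0.298 kb away, and its downstream one 162.0 kb away, at 94.7 (wt), 90.1 (mut) and 92.6 (somKO). Kdm5c was enclosed by a site 56.9 kb upstream, inside an intron of Iqsec2 at 89.3 (wt), 73.2 (mut) and 88.1 (somKO). Its downstream site lay 33.3 kb away, in an intron of Kantr, at 68.9 (wt), 49.4 (mut) and 69.1 (somKO). Iqsec2, known as silenced, ends 7.78 kb from Kdm5c, so that this nearest upstream site lay within the neighbour and not between the 2 genes.

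For 5530601H04Rik, the upstream flanking site lay in an intron of Pbdc1, and for Pbdc1 it lay in an intron of 5530601H04Rik. Their starts, 0.147 kb apart, are too close for a peak to fit between them, so that each upstream site had to reach the partner gene. The downstream site of 5530601H04Rik, 0.2 kb from its end, stood at 18.2 in wt and 25.2 in somKO and was not listed in mut. The downstream site of Pbdc1, in the exon of Magee1, stood at 73.8 (wt), 54.7 (mut) and 75.6 (somKO) for CTCF, and its Rad21 peak was not listed in mut.

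Car5b was the gene whose flanking CTCF sites were both missing from the mut list. They stood at 20.8 in wt and 31.6 in somKO upstream, and at 35.3 in wt and 47.3 in somKO downstream. The upstream Rad21 peak, at 89.6 (wt), 85.2 (mut) and 92 (somKO), also covers a second CTCF site next to it, at 89.8 (wt), 76 (mut) and 86.1 (somKO), so that a strong site stayed there in mut. Mid1 had its upstream site 246.2 kb away, at 57 (wt), 41.3 (mut) and 75 (somKO). Its downstream site, 5.16 kb away in an exon of Gm21887, stood at 74 (wt), 71.8 (mut) and 74.7 (somKO).

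Over the 16 flanking sites, CTCF was listed at 13 in mut and at 16 in somKO, and Rad21 at 12 in mut and 16 in somKO. Of all distal X wt peaks, 30.9% of CTCF and 43.4% of Rad21 were lost in mut, and 5.9% and 5.71% in somKO. The flanking sites were chosen for carrying both proteins in wt, so that these shares are not matched to them. CTCF ranked lower than in wt at 10 of the 13 in mut, and at 2 of the 16 in somKO, where 86.1% and 9.92% of all retained CTCF wt peaks of distal X did. Rad21 ranked lower at 9 of the 12 in mut and at 1 of the 16 in somKO, against 82.8% and 6.90%. The counts of lower ranks are near the shares of distal X, but they include the sites of Kdm6a and Ddx3x, which lie before 83 Mb. Before 83 Mb, 38.1% of retained CTCF and 42.2% of retained Rad21 wt peaks ranked lower in mut.

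The motifs at the flanking sites pointed mostly toward the escape gene. Of the 16 sites, 14 held a motif match, and in 12 of these, 85.7% (interval 60.1 to 96), it pointed toward the gene. At other X protein-coding genes the share was 53.4%, of 1551 matches counted by gene and side. X holds 1024 CTCF wt peaks with a match and Rad21, so that some peaks were counted for several genes. A peak between neighbouring genes that points toward the gene on its left points away from that on its right. This reuse pulls the 53.4% toward an even split, so that the contrast with the escape genes may be overstated. With a stricter motif cutoff the share was 7 of 9 at the escape genes, 77.8%, with an interval (45.3 to 93.7) that holds 53.4%. Of the 6 escape genes with a match on both sides, 4 had both pointing inward, which are Eif2s3x, Ddx3x, 5530601H04Rik and Pbdc1, against 28.4% of 644 other genes. The exceptions among the sites were the upstream site of Kdm5c and the downstream site of Car5b. For the 8 other genes reported to escape, 6 of 14 matches (42.9%, interval 21.4 to 67.4) pointed toward the gene, and the 2 intervals overlapped, and for the silenced genes 10 of 18 (55.6%, interval 33.7 to 75.4). Sites of 5530601H04Rik and Pbdc1 lie within each other's gene, so that they are not independent.

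**Figure D3:**
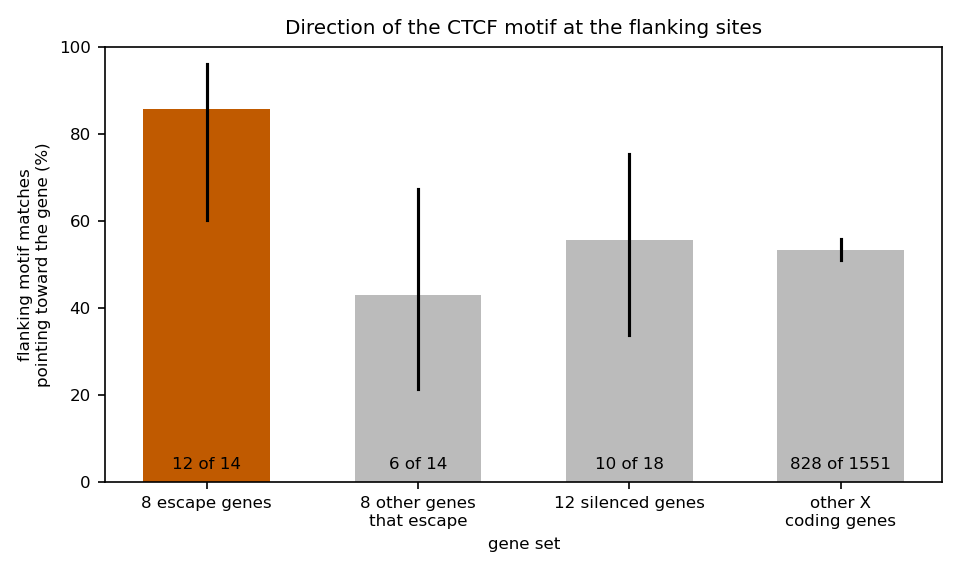
Share of flanking CTCF motif matches that point toward the gene, in percent, for 4 sets of genes; lines are 95% Wilson intervals and the counts stand in the bars. The 8 escape genes reach 85.7%, and the other 3 sets lie between 42.9% and 55.6%. A peak that flanks several genes is counted for each of them.

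Inside the genes, each of the 7 genes other than Ddx3x held a body CTCF site, and the highest of each in wt ranked lower in mut than in wt. These sites were picked by their wt percentile, which by itself favours a lower rank in another list. Their order is therefore a description. In Mid1 the picked site lay at chrX:169979052-169979693, at 94.2 (wt), 61.5 (mut) and 96.3 (somKO). In Kdm6a it stood at 91.8 (wt), 78.5 (mut) and 86.8 (somKO), and in Eif2s3x at 89.8 (wt), 66.1 (mut) and 87.1 (somKO). In Kdm5c it is the intron site shown above, and it stood at 86.4 (wt), 63.5 (mut) and 85.4 (somKO). The remaining ones were 78, 69 and 85.3 in Car5b, 64.9, 56.8 and 73.9 in Pbdc1, and 57.5, 45.6 and 60.1 in 5530601H04Rik, each in the order wt, mut and somKO. In all 7 the mut value was the lowest of the 3, which is the usual order on distal X. It held at 86.7% of the distal X CTCF sites listed in all 3 genotypes and at 62.3% over all of X. Those shares are over all such sites and not over sites picked by their wt percentile. Of the 7 genes, Kdm6a lies outside distal X. The strongest CTCF site of any window lay beyond Mid1, in the SmcHD1 cluster, at 99.9 (wt), 99.5 (mut) and 99.9 (somKO). In Ddx3x the highest body peak of Rad21, over the 3′ UTR, ran the other way, at 5.25 (wt), 37.7 (mut) and 20.9 (somKO).

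The number of CTCF wt peaks was 11 in the windows of Eif2s3x and Mid1, 10 at Kdm5c, 8 at 5530601H04Rik, 7 at Pbdc1, 6 at Car5b, 5 at Kdm6a and 0 at Ddx3x, where the median X protein-coding gene had 3. All but Ddx3x were above that median, by counts not scaled to window length. Over the merged windows, CTCF wt peaks numbered 51, mut peaks 37 and somKO peaks 58, and Rad21 peaks numbered 59, 36 and 82. The mut and somKO lists were each compared with the same wt list. In mut, 31.4% of the CTCF wt peaks were lost (interval 20.3 to 45), against 23.7% of X peaks, and 47.5% of the Rad21 wt peaks (interval 35.3 to 60), against 34.7%. The position on X moves with these shares. Beyond 83 Mb, where all of the genes but Ddx3x and Kdm6a lie, 30.9% of X CTCF peaks and 43.4% of X Rad21 peaks were lost in mut, against 15.4% and 24.1% before it. Within the distal part, the windows lost 32.6% of CTCF (interval 20.9 to 47) and 52% of Rad21 peaks (interval 38.5 to 65.2), so that their loss was near that of their surroundings. Each genotype is also a different clone, so that clone and genotype cannot be told apart.

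The gained share in mut was 2.7% of CTCF peaks (interval 0.479 to 13.8) against 9.23% over X, and 11.1% of Rad21 peaks (interval 4.41 to 25.3) against 15.7%. Within the distal part it was 3.03% against 3.66% for CTCF and 7.69% against 7.33% for Rad21, near that of the surroundings. In somKO, 3.92% of CTCF wt peaks were lost (interval 1.08 to 13.2) against 5.25% over X, and 1.69% of Rad21 (interval 0.3 to 9) against 5.40%. The gained share in somKO was 15.5% for CTCF (interval 8.38 to 26.9) against 26.7% over X, and 40.2% for Rad21 (interval 30.3 to 51.1) against 38.7%. The somKO lists are longer and come from more libraries, and with lists cut to equal length the gained share of Rad21 was 20.8%.

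Of the merged sites, 35 of 60 CTCF sites and 29 of 83 Rad21 sites were listed in all 3 genotypes. Over distal X, 51.8% of CTCF and 37.2% of Rad21 sites were. A further 14 CTCF sites (23.3%, interval 14.4 to 35.4) and 21 Rad21 sites (25.3%, interval 17.2 to 35.6) were listed in wt and somKO and not in mut, against 18.4% and 21.8% over distal X. The reverse pattern, wt and mut without somKO, was found at 0 sites of either protein, and over distal X at 0.293% and 0.0672%. The shares of distal X lie within the intervals of the windows. In the distal windows alone, 57.4% of CTCF and 31.4% of Rad21 sites were listed in all 3 genotypes. There, 25.9% and 28.6% were listed in wt and somKO and not in mut, and these intervals hold the distal X shares as well. Of sites missing from some list, 15 reached percentile 50 in a list that holds them, 1 for CTCF and 14 for Rad21, whereas 4.32% of CTCF and 19.3% of Rad21 sites did so over distal X. Of these 15, 12 were in wt and somKO and not in mut, a pattern found over distal X at 100.0% of such CTCF sites and 70.5% of such Rad21 sites. They are given as a description of where the genotypes differ, and 9 of the 15 were in the window of Mid1. The CTCF site lay in the body of Pbdc1, at 47.4 in wt and 50.3 in somKO.

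In the Mid1 window, the 7 Rad21 sites of this kind in wt and somKO lay on both ends of the gene. Those at the start stood at 64.3 in wt and 66.5 in somKO before the promoter, at 48.5 and 68.9 at the promoter, and at 48.5 and 64.8 just inside the gene. Those toward the 3′ end stood at 53.4 in wt and 73.5 in somKO, at 60 and 56.1, at 61.8 in both, and at 59.8 and 68.7. The last 3 of these overlapped SmcHD1 wt peaks, which none of the other 12 sites did. Outside Mid1, the Rad21 sites in wt and somKO stood at 50.9 and 53.4 in Kdm6a, at 58.5 and 66.3 at the 3′ end of 5530601H04Rik and at 54.8 and 71.1 beyond Pbdc1. One that ranked low in wt flanked Eif2s3x, at 12.4 and 53.4. The sites in somKO alone stood at 52.9 beyond Kdm5c and 55.4 in Mid1, and 1 more before Mid1 stood at 3.15 in mut and 52.6 in somKO.

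**Figure D4:**
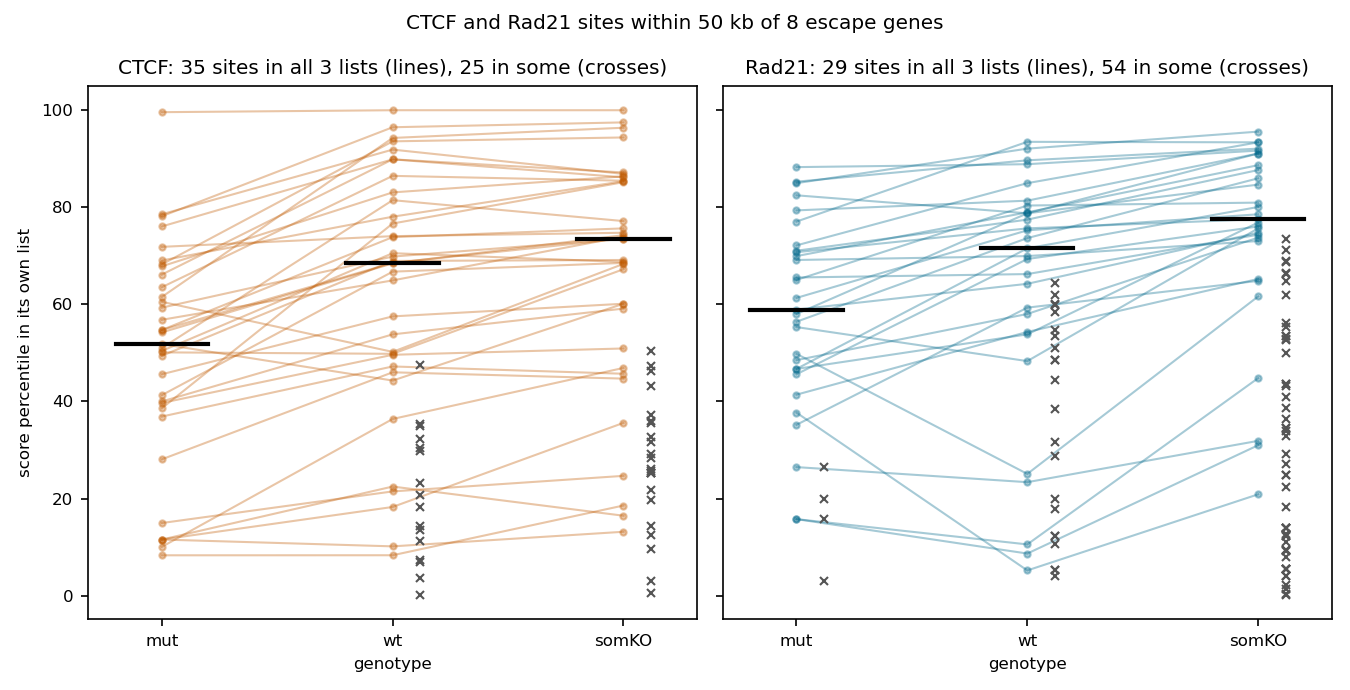
Score percentile of each merged CTCF (left) and Rad21 (right) site in the windows, by genotype; lines join the 35 CTCF and 29 Rad21 sites found in all 3 lists, black bars are their medians, and crosses are sites missing from at least 1 list. The medians are 51.8, 68.5 and 73.5 for CTCF in mut, wt and somKO, and 58.9, 71.5 and 77.5 for Rad21.

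Where CTCF stayed, its rank near the escape genes fell in mut. At the 35 retained wt peaks, the percentile changed by a median of -13.8 points (interval -18.3 to -9.87), and 31 of the 35 were lower, a share (88.6%) near that of distal X given above. The distal windows held 31 of the 35 retained peaks, and 28 of these were lower (90.3%). The median of the distal windows was also -13.8 (interval -19.5 to -10.3), against -9.75 (interval -10.6 to -8.84) in the rest of distal X, so that the 2 intervals overlapped. A gap was seen in the upper tertile of the wt percentile, where the median change was -18.7 points at the 20 sites of the windows (interval -23.7 to -13.8) and -9.85 in the rest of distal X (interval -10.8 to -8.84). Most of these 20 sites lay in the windows of Mid1 and Eif2s3x, and they include a Kdm6a site, which is not on distal X. Sites of the same gene are neighbours and not independent, so that the interval does not cover differences between genes. In the middle tertile the windows did not fall further, at -10.1 (interval -17.9 to 7.49) against -11.2, and in the lowest the values were -6.53 (interval -10.9 to 1.37) against -1.1 (interval -4.35 to 3.09). By gene, the median was -20.1 points at Mid1, -19.5 at Kdm5c, -16.6 at Eif2s3x, -13.8 at Car5b, -10 at 5530601H04Rik, -8.05 at Pbdc1 and -4.94 at Kdm6a, each over 3 to 9 peaks.

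In somKO, CTCF percentiles rose over X, and rose less near the escape genes. The median change was 2.92 points at the 49 retained peaks (interval 1.01 to 5.27), against 9.59 in the rest of X (interval 9.18 to 10) and 4.1 on the autosomes. With the lists cut to equal length, the windows stood at -1.69 (interval -4.91 to 0.625) and the rest of X at 5.02 (interval 4.45 to 5.4), so that the sign for the windows depends on list length, and their place below the rest of X did not. By tertile of the wt percentile, the medians were 6.07 against 14.5 points in the lowest and 0.913 against 6.1 in the highest, with intervals that did not overlap. In the highest tertile most sites of the windows were again those of Mid1 and Eif2s3x. In the middle tertile they were 5.27 (interval 0.951 to 15.8) against 10.9 (interval 10.3 to 11.4), which overlapped.

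The 8 other genes reported to escape gave values on the same side of X for CTCF, at -11.6 points in mut (interval -16.7 to -5.89) and 2.81 in somKO (interval 0.597 to 5.2). The silenced genes gave -3.69 (interval -6.6 to 0.455) and 6.38 (interval 5.47 to 8.69), and the other X protein-coding genes -3.54 and 9.45. The positions of these sets along X were not matched.

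Rad21 did not follow this pattern in somKO. Its median change there was 9.95 points (interval 7.81 to 14.4) in the windows and 10.1 at other X protein-coding genes. With lists of equal length the windows stood at 1.98 (interval -0.692 to 6.92) and the rest of X at 3.27, so that the size of this rise depends on list length. In mut it was -6.4 (interval -12.9 to -0.686) in the windows and -8.07 over distal X. Without Mid1, whose own median was -13.8, it was -3.18 (interval -7.14 to 3.69). That is close to the -2.89 of other X protein-coding genes, which span all of X. The rest of distal X fell further, at -8.14 (interval -8.82 to -6.91), with an interval that narrowly overlapped that of the windows without Mid1. These windows include Ddx3x and Kdm6a, which lie outside distal X, so that neither background was matched in position. With all 8 genes and windows of 25 kb the median change in mut was -5.26 (interval -12.9 to 3.11).

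**Figure D5:**
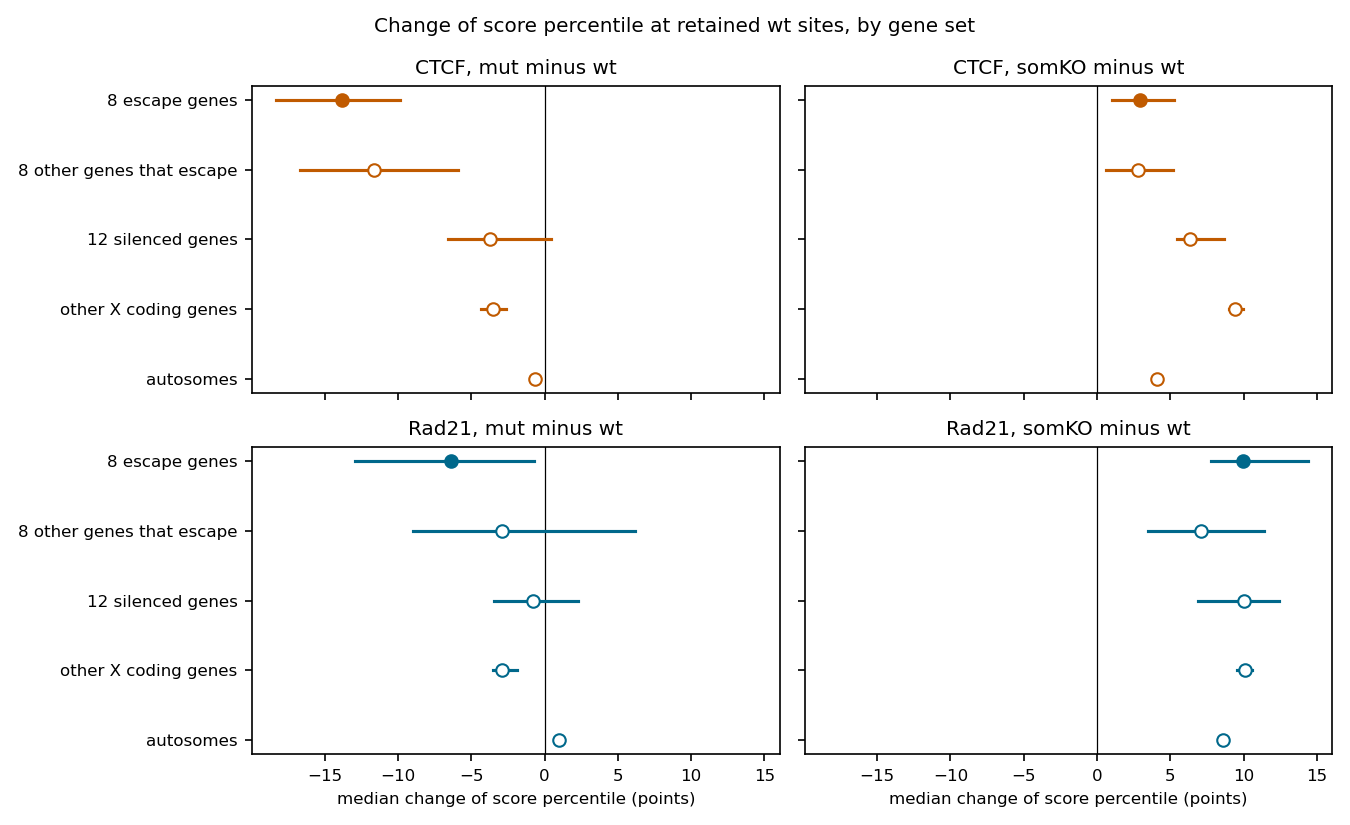
Median change of the score percentile, in points, at wt peaks retained in mut (left) or somKO (right), for CTCF (top) and Rad21 (bottom); points are medians and lines 95% order-statistic intervals for windows of 4 gene sets and for the autosomes. CTCF near the 8 escape genes lies at -13.8 in mut and 2.92 in somKO, below the other X protein-coding genes at -3.54 and 9.45. Those genes span all of X, and the rest of distal X, not drawn, stood at -9.75 in mut, with an overlapping interval.

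The share of Rad21 peaks with CTCF in the windows depended on the processing. Of the Rad21 peaks in the windows, 55.9% overlapped a CTCF peak in wt (interval 43.3 to 67.8), against 69.4% over X (interval 67.2 to 71.4). In mut the share was 66.7% (interval 50.3 to 79.8) against 74.3%. In somKO it was 51.2% (interval 40.6 to 61.7) against 65.4%, and 73.6% (interval 60.4 to 83.6) with lists of equal length. The genes differed. In wt, 7 of 7 Rad21 peaks in the window of Pbdc1 overlapped CTCF, whereas 8 of 20 did at Mid1 and 1 of 5 at Ddx3x. That Ddx3x peak crosses the window edge, and the CTCF peak it overlaps is the upstream flanking site, just outside the window. Without Mid1 the share was 64.1% in wt (interval 48.4 to 77.3) and 63.3% in somKO.

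CTCF sites like the first set shown above were counted in the windows and over X. The Eif2s3x stretch used for the count was itself picked in these windows after similar sites had been seen there, so that the shares are a description and no test. Of the 51 CTCF wt peaks in the windows, 12 (23.5%, interval 14 to 36.8) had a motif match at least 75% identical to the Eif2s3x promoter stretch over 60 bases, that stretch included, against 7.72% of X peaks (interval 6.62 to 9). Most lay at 2 genes, with 5 near Kdm5c, 4 near Eif2s3x and 1 each near Kdm6a, Car5b and Mid1. Most were weak and without cohesin: their median percentile was 33.6 and 3 of 12 overlapped a Rad21 wt peak, against 68.7 and 23 of 28 for other sites with a match. In mut, 7 of the 12 were lost (58.3%, interval 32 to 80.7), near the 60% of such peaks on all of X, and of the 28 others 6 were lost (21.4%). Some of the 28 resemble the stretch but fell below 75%, such as the downstream flanking sites of Car5b, 5530601H04Rik and Eif2s3x. Those of Car5b and 5530601H04Rik were weak and not listed in mut, and that of Eif2s3x was strong and listed. The contrast thus depends on this cutoff, and no other was tried. Of the 12, the Eif2s3x promoter and Kdm5c intron sites were the 2 strong ones. In mouse, short interspersed repeats of the B2 family are known to carry CTCF motifs. The family of these sequences was not assigned here.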

How the data were processed

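The study measured SmcHD1, CTCF and Rad21 by ChIP-seq in female fibroblasts. Per the labels and the study's methods, SmcHD1 and Rad21 chromatin was fixed with EGS and formaldehyde and CTCF chromatin with formaldehyde alone, reads were aligned with Bowtie2 to an mm10 genome masked at strain variants, and narrow peaks were called with MACS2 on merged replicates of both alleles; versions are not given in the sources used here. The score deposited by the authors is taken to be -log10 of q multiplied by 10, since no list goes below 13, and served only as a rank within its own list. Depth is unknown, and no p-value was computed, because each group has 1 list. H3K27me3 and input libraries were not used here.

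Peaks were assigned to genes of GENCODE M21. A peak was lost or gained if it overlapped no peak of the other list by at least 1 bp. Shares carry Wilson intervals, densities exact Poisson intervals and medians order-statistic intervals. A CTCF motif 20 bases wide was learned in 5 rounds from the 1000 highest CTCF wt peaks of chromosome 1, starting from GGNGGCAG on both strands. The best match in each whole peak counted if it passed the level reached at 5% of positions shifted by 3 kb, which 75.7% of CTCF wt peaks on X did. Promoter sequences came from RefSeq (GRCm38.p6), in which each of the 8 genes was found. Python 3.11.15, numpy 2.4.6, pandas 2.3.3, scipy 1.17.1 and matplotlib 3.10.9 were used, and the steps were tested on simulated lists. The genes, the gene lists and the 83 Mb position were chosen with earlier results of these data known, and the motif direction, the percentile changes and the similar CTCF sequences were examined after the data were seen. All 8 genes were named, with every promoter site, the flanking sites, the highest body site and SmcHD1 wt peaks, and each site missing from some genotypes that reached percentile 50. Alternatives were other window sizes, Mid1 left out, a score of at least 50, 50% reciprocal overlap, lists of equal length, percentiles within X, and other promoter definitions.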

Additional observations from a re-analysis of the deposited data

Results flagged for a closer look

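Percentiles near the escape genes moved in opposite directions in the 2 genotypes without SmcHD1. At retained wt sites, the median change of CTCF was -13.8 points in mut and 2.92 in somKO, and that of Rad21 was -6.4 in mut and 9.95 in somKO. Each genotype has 1 list, so that the difference was not tested. With lists of equal length, the CTCF change in somKO was -1.69 points and that of Rad21 1.98. Both changes are taken from the same wt list, and genotype, clone and ploidy cannot be told apart.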

How the results depend on the processing

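No paired analysis was possible because each list merges all replicates of its group, and for the same reason no replicate could be left out. Of 157 values under alternatives, 132 stayed within the interval of the reported value, or within 1.5 times of a count. Windows of 25 or 100 kb, percentiles within X and promoters of 2 kb moved none past it. Promoters at any transcript start gave CTCF at 5 genes (wt), 4 (mut) and 5 (somKO), and Rad21 at 5 genes (mut). Overlap of 50% of both peaks gave lost shares of 47.1% (CTCF, mut), 13.7% (CTCF, somKO) and 47.5% (Rad21, somKO), gained shares of 27% (CTCF, mut), 30.6% (Rad21, mut) and 63.4% (Rad21, somKO), and Rad21 with CTCF in 27.1%, 38.9% and 26.8% of wt, mut and somKO peaks, a stricter overlap by construction. A score of at least 50 gave lost shares of 0% for CTCF and for Rad21 in somKO, and Rad21 with CTCF in 69.8% in wt and 68.4% in somKO. Lists of equal length gave, in somKO, Rad21 lost and gained shares of 13.8% and 20.8%, Rad21 with CTCF in 73.6%, a Rad21 change of 1.98 points and a reversed CTCF change of -1.69 points. Without Mid1, the CTCF gained share in mut was 0%, Rad21 with CTCF in somKO 63.3%, and the SmcHD1 density 5.39 per Mb. The motif share toward the gene was 77.8% (interval 45.3 to 93.7, which holds the share of other genes) to 91.7% under 3 alternatives chosen after seeing the data, as were those of the percentile changes. Counts near each gene are small, the depth is unknown, and neither allele can be seen separately.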
